A study of Mus musculus with 4 samples.

Results

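The 32 genes described here serve cholesterol synthesis and its regulation, out of 36039 gene names on a mouse single-colour Agilent expression array. They were taken by name and comprised 19 synthesis enzymes, 6 regulators, 3 transport or efflux proteins and 4 fatty acid genes. The gene name column of the scanner files held 31 of them, and Msmo1, listed there under the older name Sc4mol, was matched through its RefSeq accession. The 32 genes had 46 probes in all, and 11 of the genes had more than 1 probe. No receptor for lipoprotein uptake was among the 32, so the term uptake applied to none of them.

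RNA came from E14Tg2A, a mouse embryonic stem (ES) cell line of the 129/Ola strain, on 4 arrays, 1 per group. The ES group, at day 0, grew on gelatin with fetal calf serum and leukemia inhibitory factor. The ELA group, epiblast-like aggregates at day 2, floated in serum-free defined medium with N2 and B27 supplements and without that factor. The other groups were such aggregates formed with 5-azacytidine (AZA, 50 nM), a methyltransferase inhibitor, or with 5-carboxy-8-hydroxyquinoline (CHQ, 100 µM), a lysine demethylase inhibitor. Each array carried RNA pooled from 3 experiments, so no spread between experiments could be measured and no difference below has a replicate check, a test or a p-value. Cell state, day, medium and supplements, serum, leukemia inhibitory factor and adhesion changed together between ES and ELA and cannot be told apart. ES and ELA lay on 1 slide and the treated aggregates on another, so slide and treatment cannot be told apart in the comparisons of AZA or CHQ with ELA, whereas ELA minus ES and CHQ minus AZA were within a slide. Drug and dose cannot be told apart in CHQ minus AZA.

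Cholesterol is built from acetyl-CoA through mevalonate, isoprenoid diphosphates, squalene and lanosterol. When sterols are scarce in the endoplasmic reticulum, SCAP escorts the SREBP transcription factors to the Golgi, where proteolysis frees them to enter the nucleus and induce the enzymes of the pathway. INSIG proteins hold SCAP back when sterols are plentiful, while LXR receptors, which respond to oxysterols, induce the ABCA1 and ABCG1 exporters. Dividing stem cells need cholesterol for membranes and farnesyl or geranylgeranyl groups for the prenylation of proteins.

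SREBPs bind a short sterol regulatory element near transcription starts and act there together with NF-Y, which binds the CCAAT box, and with Sp1, which binds GC boxes. Promoter windows of RefSeq (build GRCm38.p6), from 250 bases before to 50 after each start, were found for 25 of the 32 genes, in 33 windows. Fdps, Fdft1, Sqle, Stard4, Abcg1, Scd1 and Scd2 had no entry. The letters TCACNCCAC, sought on both strands as the sterol regulatory element, were in the windows of 1 of the 25 genes, Hmgcs1, against 1.44% of all 27025 genes in the table. Only these exact letters were sought, so a gene without a match is not shown to lack a sterol element. CCAAT, read on both strands, was in 20 of the 25 genes and in 15 of the 16 enzymes with a window, against 41.1% of all genes. GGGCGG, read likewise, was in 20 of the 25 and in 38.2% of all genes, and CACGTG, the E box letters that SREBPs can also bind, was in 6 of the 25 and in 8.09% of all genes. None of these 4 motifs contains another, although neighbouring matches can share bases. The 150 bases before the start are given for the enzyme with the sterol element (Hmgcs1), the enzyme with the largest AZA difference (Lss), an enzyme called in 2 comparisons (Msmo1) and the enzyme whose differences stayed smallest (Ggps1). All are written in gene direction, with CCAAT letters on either strand and the sterol element in capitals.
Hmgcs1, chr13:119690201-119690350, + strand: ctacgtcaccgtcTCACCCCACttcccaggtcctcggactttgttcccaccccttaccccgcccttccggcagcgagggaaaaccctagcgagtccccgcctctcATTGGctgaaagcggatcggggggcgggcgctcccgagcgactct
Lss, chr10:76531455-76531604, + strand: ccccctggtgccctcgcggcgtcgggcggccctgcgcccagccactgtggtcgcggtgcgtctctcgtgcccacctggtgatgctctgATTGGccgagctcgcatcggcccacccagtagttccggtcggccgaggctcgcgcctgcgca
Msmo1, chr8:64733579-64733728, - strand: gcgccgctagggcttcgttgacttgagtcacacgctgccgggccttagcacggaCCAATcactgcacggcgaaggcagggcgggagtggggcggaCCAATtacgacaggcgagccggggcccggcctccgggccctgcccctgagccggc
Ggps1, chr13:14063489-14063638, - strand: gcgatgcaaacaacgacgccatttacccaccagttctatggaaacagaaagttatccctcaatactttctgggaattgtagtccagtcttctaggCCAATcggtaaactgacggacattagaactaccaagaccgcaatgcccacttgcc
The Hmgcs1 stretch held the sterol element and 1 CCAAT box, whereas Lss had 1 CCAAT box, Msmo1 had 2 and Ggps1 had 1. A match describes letters in a window only, and Ggps1 carried the CCAAT letters without being called in any comparison.

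**Figure D1:**
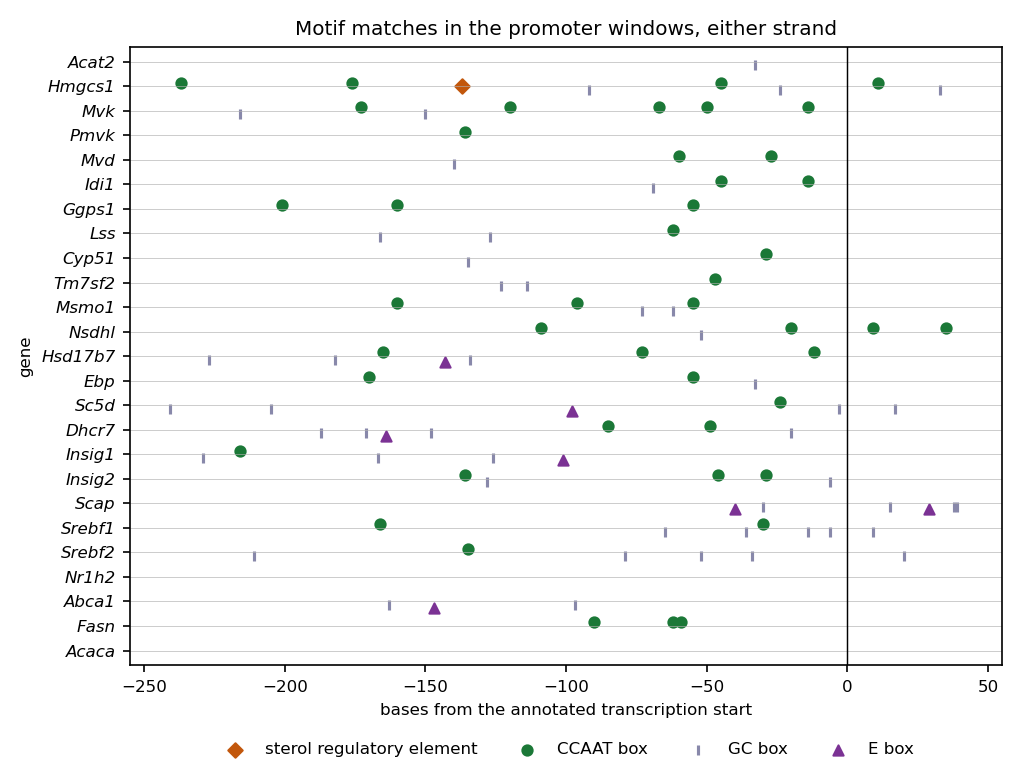
Matches of the 4 motifs in the promoter windows of the 25 genes with an entry, on either strand, placed by the first matching base in bases from the annotated start (negative before it, each window of a gene against its own start). CCAAT boxes lay in 20 of the 25 genes, and the single exact match to TCACNCCAC lay in Hmgcs1, variants of these letters not being sought.

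Levels are given as log2 intensities after normalization, and a difference of 1 is a factor of 2. A gene was called higher or lower where the difference reached 1, the mean of both arrays reached 7.5 and at least 1 of them had the probe well above background. These size thresholds follow the study's methods, whose p threshold cannot be applied to single arrays. Between 55.1% and 69.2% of gene spots stood well above background on an array. The first slide had the brighter surroundings, with median background intensities of 59 (ES) and 77 (ELA), against 14 (AZA) and 13 (CHQ) on the second. Repeated spots of 1 probe had an SD of 0.146, which gives 0.21 for a difference of 2 spots and covers spotting error only. Differences from different probes of 1 gene, over genes with exactly 2 probes, scattered with a robust SD of 0.16 in ELA minus ES and 0.19 in CHQ minus AZA, but 0.41 in both comparisons across slides. The plain SDs, which outlying pairs raise, were 0.27 and 0.32 within slides and 0.54 (AZA) and 0.53 (CHQ) across them, so the scatter used hereafter is the smaller, robust one. Array labels were read against 8 ground state marker genes, of which all 8 were called lower in ELA than in ES, 8 were higher with AZA than in ELA and 7 were higher with CHQ. The other probe of 1 of them, Nanog, did not share this, with 0.24 in ELA minus ES and -1.55 in AZA minus ELA. Because these were bulk samples, fewer cells of a type and less RNA per cell cannot be told apart. All 32 genes met the conditions on level in every comparison, and Abca1 on the ELA array was the only value not well above background.

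Most enzyme signals lay above ES in ELA aggregates, except under spike-in scaling. Only 2 of the 19 enzymes (10.5%) were called higher in ELA, beside 4.51% of all genes. Most were lowest in AZA aggregates, with CHQ aggregates in between. Against ELA, 14 (73.7%) were called lower with AZA, beside 11.4% of all genes. With CHQ 3 (15.8%) were called lower, near the 11.9% of all genes. By the main scaling, across both slides, ELA gave the highest of the 4 levels for 16 of the 19 enzymes and AZA the lowest for 15. The median enzyme difference was 0.59 in ELA minus ES, beside -0.01 for all genes, and -1.34 in AZA minus ELA, beside -0.07. It was -0.55 in CHQ minus ELA, beside -0.08, and 0.73 in CHQ minus AZA, beside -0.02. Against ES cells, which lay on the other slide, 17 of the 19 enzymes were lower with AZA by the main scaling, with a median of -0.65. For CHQ 8 were lower, with a median of 0.04. These differences from ES were not summarised for all genes or under the other settings. With spike-in scaling the enzyme median of CHQ minus ELA was -0.79, so the CHQ levels relative to ES depend on the scaling. When the arrays were scaled to E1A spike-in probes instead, the median of ELA minus ES went to -0.0007 with 9 enzymes above 0 and 10 below, because the median of all genes moved to -0.62. The enzyme median relative to that of all genes stayed between 0.60 and 0.71 in ELA minus ES over 7 settings, between -1.38 and -1.20 in AZA minus ELA over 6, between -0.47 and -0.39 in CHQ minus ELA over 6 and between 0.74 and 0.81 in CHQ minus AZA over 7.

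**Figure D2:**
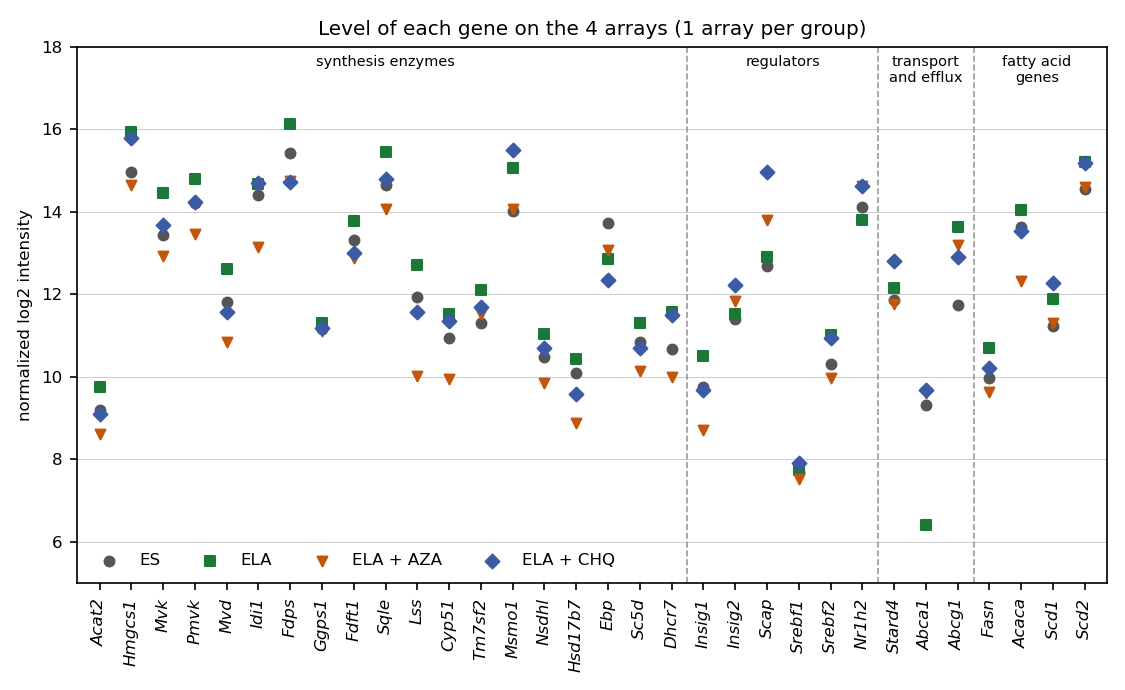
Normalized log2 intensity (vertical axis) of the brightest probe of each of the 32 genes, with 1 point per array and enzymes in pathway order from the left. By the main scaling, across the 2 slides, ELA gave the highest level of 16 of the 19 enzymes and AZA the lowest of 15. With spike-in scaling 10 of the 19 were lower in ELA than in ES. Abca1 on the ELA array was not well above background. Heights of different genes are not comparable, since each comes from its own probe.

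The first steps convert acetyl-CoA to isopentenyl diphosphate, and the 5 listed enzymes, which do not cover every step, were all called lower with AZA, beside 11.4% of all genes. Acat2, the cytosolic thiolase that joins acetyl-CoA units, measured 9.19 in ES, 9.75 in ELA, 8.62 under AZA and 9.099 under CHQ. Hmgcs1, which adds the next acetyl group to make HMG-CoA, measured 14.98, 15.93, 14.65 and 15.80 in that order. Its CHQ level came within 0.13 of ELA, whereas its AZA level was below ES. Mevalonate kinase, Mvk, measured 13.44 on the ES array and 14.46 on the ELA array, 12.93 with AZA and 13.68 with CHQ, a pattern that its other probe shared with differences of 1.00 in ELA minus ES and -1.30 in AZA minus ELA. Pmvk, the next kinase, had 14.21, 14.81, 13.46 and 14.25, and its other probe gave -1.26 in AZA minus ELA. Mvd, the decarboxylase that forms isopentenyl diphosphate, had 11.83, 12.61, 10.85 and 11.57. Both treated aggregates were thus below ELA for Mvd, by 3.39-fold with AZA and 2.07-fold with CHQ.

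The isoprenoid segment had 2 of its 4 listed enzymes called lower with AZA, beside 11.4% of all genes. Idi1, which isomerises isopentenyl diphosphate, measured 14.40 in ES and 14.67 in ELA, then 13.15 with AZA and 14.70 with CHQ. It was therefore 2.86-fold lower with AZA than in ELA, and CHQ differed from ELA by 0.04. Fdps, which makes farnesyl diphosphate, measured 15.42, 16.13, 14.76 and 14.72, so that both drugs were about equally below ELA, 2.59-fold with AZA and 2.65-fold with CHQ. Ggps1, which extends farnesyl to geranylgeranyl diphosphate on a side branch for protein prenylation, stayed between 11.12 and 11.30 on all 4 arrays. The other 2 probes of Ggps1 also stayed under 0.45 in every comparison. Fdft1, squalene synthase and the first step committed to sterols, measured 13.32, 13.78, 12.88 and 13.01, with neither drug reaching the threshold by the main scaling. With spike-in scaling Fdft1 was called lower with both AZA (-1.04) and CHQ (-1.05), and with percentile scaling with AZA (-1.02).

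Among the 10 listed enzymes from squalene onward, 7 were called lower with AZA, beside 11.4% of all genes. Sqle, the epoxidase and a rate-limiting step, measured 14.66 in ES, 15.45 in ELA, 14.08 under AZA and 14.81 under CHQ. Lss, lanosterol synthase, measured 11.93, 12.71, 10.03 and 11.57, with its probe at chr10:76015992-76016051 of mm9. Its 6.41-fold lower level with AZA was the largest enzyme difference in any comparison, and CHQ was 2.21-fold below ELA. Cyp51, the lanosterol demethylase, measured 10.95, 11.54, 9.94 and 11.36. Msmo1, the sterol methyl oxidase, measured 14.03 on the ES array and 15.07 on the ELA array, 14.08 with AZA and 15.50 with CHQ. Its AZA difference of -0.998 fell just short of the threshold, and its CHQ level was the highest of the 4. Nsdhl, a dehydrogenase that removes the methyl group with it, had 10.49, 11.03, 9.84 and 10.71, and its other probe gave the same AZA difference of -1.19. Hsd17b7, the ketoreductase of that step, had 10.09, 10.43, 8.89 and 9.60, and its other probe gave -0.86 with AZA, short of the threshold.

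The remaining sterol enzymes included the exceptions. Tm7sf2, a sterol reductase whose reaction can also be done by another protein, measured 11.30 in ES and 12.10 in ELA, then 11.54 with AZA and 11.70 with CHQ, so neither drug reached the threshold. Ebp, the sterol isomerase, measured 13.74 in ES, 12.86 in ELA, 13.09 under AZA and 12.35 under CHQ. It was the single enzyme lower in ELA than in ES by the main scaling (-0.88), the single one above ELA with AZA (0.23), and was lower with CHQ than with AZA (-0.74). Sc5d, the desaturase of the late steps, had 10.84, 11.30, 10.15 and 10.69. Dhcr7, the last reductase, had 10.67, 11.56, 9.99 and 11.49, a 2.97-fold lower level with AZA and a CHQ level 0.07 below ELA.

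**Figure D3:**
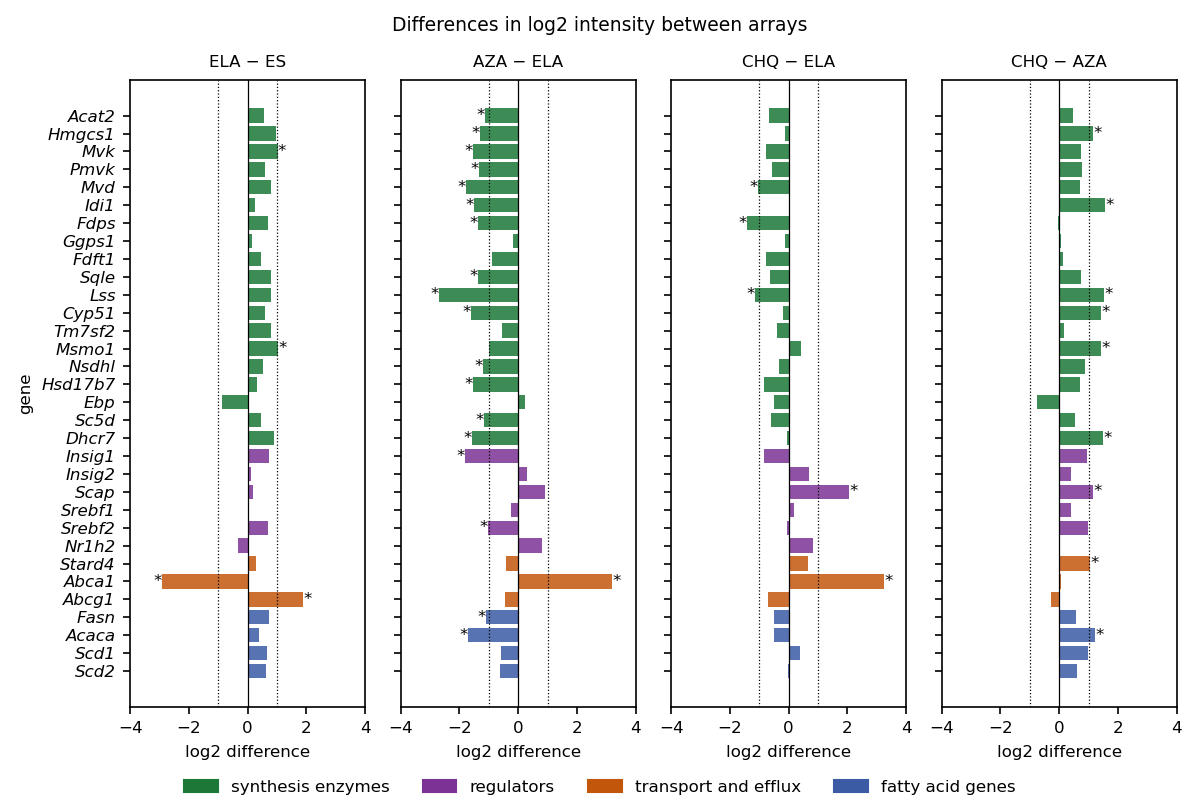
Differences in log2 intensity (horizontal axis) of the 32 genes in the 4 comparisons, with bars coloured by group, dotted lines at -1 and 1 and an asterisk on genes that were called. Enzyme bars point right in ELA minus ES (18 of 19, or 9 of 19 when scaled to spike-in probes), left in AZA minus ELA (18 of 19) and right in CHQ minus AZA (17 of 19, or 15 to 18 over the settings).

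In ELA minus ES, which asks how the genes differed between the stem cell culture and the aggregates, 3 of the 32 genes were called higher, beside 4.51% of all genes tested, and 1 was called lower, beside 5.50%. The lower gene was Abca1, whose ELA reading was not well above background, so that only a bound can be given, and the higher genes were Mvk (1.02), Msmo1 (1.04) and Abcg1 (1.88), so only 2 enzymes were called although 18 of 19 lay above 0. Enzyme differences ran from -0.88 for Ebp to 1.04 for Msmo1. By segment the medians were 0.79 for the 5 listed enzymes up to isopentenyl diphosphate, 0.36 for the 4 isoprenoid ones and 0.68 for the 10 from squalene. Hmgcs1 (0.95) and Dhcr7 (0.89) lay just under the threshold. With percentile or spike-in scaling only 1 gene, Abcg1, was called higher. With percentile scaling Ebp (-1.04) took the place of Abca1 as the gene called lower. With spike-in scaling Ebp (-1.65), Nr1h2 (-1.08) and Abca1 were called lower, beside 19.69% of all genes. In the authors' table, or where both arrays had to be above background, 0 genes were called lower. Scaled to the spike-in probes, 9 of the 18 enzymes above 0 by the main scaling were below it, among them Idi1 (-0.46), Fdft1 (-0.28) and Hsd17b7 (-0.25). Of 4 primed markers Fgf5 (2.86) and Dnmt3b (1.05) were called higher, as was 1 of 4 neural markers, Zfp521 (1.72, or 0.66 by its other probe). The part of these markers was not tested.

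In AZA minus ELA, which sets aggregates formed with the methyltransferase inhibitor against those without it, 18 of the 32 genes were called lower, beside 11.4% of all genes, and 1 was called higher, beside 14.2%. Of the 18, 14 were enzymes, and the others were Insig1, Srebf2, Fasn and Acaca. The higher gene was Abca1, which was not called with percentile scaling, in the authors' table or where both arrays had to be above background. It lost these calls through the conditions on level, since its measured difference was 5.15 with percentile scaling and 4.49 in the authors' table. The enzymes not called were Ggps1 (-0.18), Fdft1 (-0.90), Tm7sf2 (-0.56), Msmo1 (-0.998) and Ebp (0.23). Msmo1 was called lower with percentile (-1.25) and spike-in scaling (-1.26) and in the authors' table (-1.01), and Fdft1 in the first 2 of these. In that order the settings gave 20, 20 and 19 lower genes, beside 14.7%, 14.8% and 13.3% of all genes. Segment medians were -1.34 up to isopentenyl diphosphate, -1.14 over the isoprenoid steps and -1.28 from squalene onward. At a threshold of 1.5 the count of lower genes was 9, but the share of all genes at that threshold was not computed. All of these differences lay between slides, and the lower local background of the treated arrays and the 0.41 scatter between probes moved with them. Cell state markers moved too, with 3 of the 4 primed markers called lower with AZA, namely Fgf5 (-2.54), Dnmt3b (-1.67) and Pou3f1 (-1.54). Of 4 neural markers, Zfp521 and Nes (-1.67) were called lower. So were 1 of 4 trophoblast markers, Krt8 (-1.80), and 1 of 5 primitive endoderm markers, Dab2 (-1.48), while Cd68 (1.49), of 4 hepatocyte and macrophage markers, was higher. Zfp521 was not well above background with AZA, so only a bound can be given, and its other probe gave -0.67. The part of the slide and of these markers in the enzyme differences was not tested.

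In CHQ minus ELA, the same comparison for the demethylase inhibitor, 3 of the 32 genes were called lower, beside 11.9% of all genes, and 2 were called higher, beside 14.8%. The lower genes were the enzymes Mvd (-1.05), Fdps (-1.41) and Lss (-1.14), all of which were also called lower with AZA, a comparison that shares the ELA array. The higher genes were Scap (2.07) and Abca1, for which only a bound can be given. Abca1 was not called with percentile scaling, in the authors' table or where both arrays had to be above background. It again missed the conditions on level, with a measured difference of 5.22 with percentile scaling and 4.47 in the authors' table. Of 5 primitive endoderm markers, Gata6 and Sox17 were called higher too and Dab2 (-1.35) lower, and the primed marker Fgf5 (-1.15) was lower, of 4. Gata6 and Sox17 were not well above background in ELA, so for them, as for Abca1, only a bound can be given. The neural markers Zfp521 (-1.92) and Nes (-1.24), of 4, and the trophoblast marker Krt8 (-1.20), of 4, were lower, and Cd68 (1.37), of 4 hepatocyte and macrophage markers, was higher. The other probe of Zfp521 gave -0.49. The part of all these markers in the enzyme differences was not tested. The count of lower genes was 5 with percentile scaling, beside 18.96% of all genes, and 7 with spike-in scaling, beside 22.18%. At a threshold of 1.5 the count was 0, again without a computed share of all genes. For the enzymes Hmgcs1 (-0.13), Idi1 (0.04), Cyp51 (-0.18) and Dhcr7 (-0.07), CHQ and ELA were within the 0.41 scatter between probes by the main scaling. With spike-in scaling Hmgcs1 (-0.79) and Idi1 (-0.48) were outside it, as was Hmgcs1 with percentile scaling (-0.60). Msmo1 was higher with CHQ by 0.43, or lower by 0.18 with spike-in scaling (-0.18).

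CHQ minus AZA compares both drugs within a slide, and 9 of the 32 genes were called higher with CHQ, beside 5.60% of all genes, and 0 lower, beside 4.80%. With spike-in scaling 5 were called higher, beside 4.40% of all genes. At a threshold of 1.5 the number was 3, with no share of all genes computed. No replicated test stands behind the count of 0. The 6 enzymes were Idi1 (1.55), Lss (1.54), Dhcr7 (1.501), Msmo1 (1.43), Cyp51 (1.42) and Hmgcs1 (1.15). The other 3 genes were Scap, Stard4 and Acaca. Hmgcs1, Scap and Stard4 were not called with percentile or spike-in scaling. Acaca was not called with spike-in scaling (0.98) or the mean over probes (0.57). Stard4 was also not called with the mean over probes (0.85) or quantile within each slide (0.99). The isoprenoid enzymes Fdps (-0.03), Ggps1 (0.07) and Fdft1 (0.13) and the reductase Tm7sf2 (0.16) differed between the drugs by less than the 0.19 scatter between probes under the main scaling, though not Fdps with spike-in scaling (-0.27) nor Tm7sf2 in the authors' table (0.20). Enzymes before isopentenyl diphosphate had a median of 0.76 and those from squalene onward a median of 0.80, against 0.10 over the isoprenoid steps. By the main scaling, 17 of the 19 enzymes lay above 0 in both within-slide comparisons. Over the settings, the number above 0 in CHQ minus AZA ran from 15 with spike-in scaling to 18 in the authors' table, and in ELA minus ES it was 18 except with spike-in scaling, where it was 9. Markers of primitive endoderm also moved between the drugs, with 3 of the 5 called higher with CHQ. Gata6 measured 8.06 with AZA and 9.89 with CHQ, Sox17 measured 7.76 and 9.51, and Afp measured 6.88 and 8.56. Gata4, at 7.69 and 7.72, and Dab2, at 6.78 and 6.91, did not reach the threshold. Of the 8 ground state markers, 4 were called lower with CHQ than with AZA, namely Nanog (-2.87), Esrrb (-2.02), Tbx3 (-1.53) and Nr0b1 (-1.12), although the other probe of Nanog gave 0.54. Of the 4 primed markers, Pou3f1 (1.88) and Fgf5 (1.40) were called higher. The part of these markers in the enzyme differences was not tested.

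Against ELA, the regulators did not move as a group with either drug, since 3 of the 6 lay above 0 with AZA and 4 with CHQ. In CHQ minus AZA all 6 lay above 0 by the main scaling, with a median of 0.69, but only Scap was called. Of these, Nr1h2 went to -0.23 with spike-in scaling. In ELA minus ES 5 lay above 0 by the main scaling, with a median of 0.16, and 0 were called. Insig1, itself an SREBP target that retains SCAP, measured 9.77 on the ES array and 10.51 on the ELA array, 8.71 with AZA and 9.67 with CHQ, so that, like most enzymes, it was highest in ELA and lowest with AZA, by 3.47-fold. Insig2, its relative under other control, measured 11.41, 11.52, 11.84 and 12.23 by its brightest probe. The other Insig2 probe gave differences of opposite sign, -0.69 with AZA and -0.40 with CHQ, so the direction of Insig2 was not settled. Scap, the sterol-sensing escort of SREBP, measured 12.70 in ES and 12.90 in ELA, then 13.81 with AZA and 14.97 with CHQ, by a single probe at chr9:110287280-110287339 of mm9. It was 4.20-fold higher with CHQ than in ELA and 2.24-fold higher than with AZA, the largest difference among the regulators within each of these comparisons by the main scaling. In CHQ minus AZA Scap was not called with percentile (0.90) or spike-in scaling (0.83), where Insig1 (1.09 and 0.89) exceeded it, whereas the CHQ minus ELA difference stayed between 1.60 and 2.07 over all settings. With AZA, Scap (0.91) and most enzymes differed from ELA in opposite directions.

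The SREBP genes themselves gave less. Srebf2, which encodes the SREBP most tied to cholesterol synthesis, measured 10.32 in ES, 11.01 in ELA, 9.97 under AZA and 10.94 under CHQ. Its other probe, dimmer, read 8.48, 8.44, 9.67 and 9.87, so that probe was higher with AZA by 1.23 where the brighter one was lower by 1.04 (-1.04), and the mean of both was 0.10. The call of Srebf2 with AZA thus rests on the choice of probe. Srebf1, tied more to fatty acid genes, stayed between 7.51 and 7.92 on all 4 arrays, near the level threshold. Nr1h2, the LXR receptor found in most tissues, measured 14.13 on the ES array and 13.81 on the ELA array, 14.62 with AZA and 14.63 with CHQ, a difference of 0.81 from ELA with either drug that was not called. It was 0.60 with AZA and 0.38 with CHQ under spike-in scaling, and 0.57 and 0.42 under percentile scaling.

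The exporters differed from each other. Abca1, which loads cholesterol onto apolipoproteins, measured 9.33 in ES, 9.62 with AZA and 9.68 with CHQ, and was not well above background in ELA, where it read 6.42. Relative to that reading it was at least 7.53-fold higher in ES, at least 9.22-fold higher with AZA and at least 9.60-fold higher with CHQ by the main scaling. These bounds depend on the processing, since the measured log2 difference from ELA ran from 2.78 with spike-in to 5.15 with percentile scaling for AZA, and from 2.75 to 5.22 for CHQ. In ELA minus ES it ran from -4.82 to -2.69. Its probe lay at chr4:53043944-53044003 of mm9. AZA and CHQ differed for Abca1 by only 0.06. Abcg1, which exports cholesterol to larger lipoproteins, was lowest in ES, with 11.74, against 13.63 in ELA, 13.20 with AZA and 12.91 with CHQ. It was 3.69-fold higher in ELA than in ES, opposite in direction to Abca1, and 1.27 higher on the log2 scale with spike-in scaling. Stard4, a soluble sterol carrier and SREBP target, measured 11.87, 12.17, 11.77 and 12.82. The other Stard4 probe gave -1.70 with AZA and -1.04 with CHQ against ELA, whereas both probes put CHQ above AZA, by 1.05 and 0.66.

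Of the 4 fatty acid genes, which share SREBP control, 2 were called lower with AZA than in ELA, Acaca and Fasn, beside 11.4% of all genes. Acaca, acetyl-CoA carboxylase, measured 13.65 in ES and 14.04 in ELA, then 12.32 with AZA and 13.55 with CHQ. Its 4 probes gave differences between -1.76 and -1.49 in AZA minus ELA, of which the brightest pair overlap in all but 1 base, while in CHQ minus AZA they ran from -0.41 to 1.23. In CHQ minus ELA they ran from -1.90 to -0.49, and Acaca was called lower there by the mean over probes (-1.10) only. Fasn, fatty acid synthase, measured 9.97, 10.71, 9.63 and 10.22. The desaturases were measured as well, with Scd1 at 11.22, 11.90, 11.30 and 12.29 and Scd2 at 14.56, 15.20, 14.60 and 15.19. By the main scaling both were 0.60 below ELA with AZA (-0.60), and CHQ minus ELA was 0.39 for Scd1 and -0.01 for Scd2, neither of them called. With spike-in scaling Scd2 gave -0.92 with AZA and -0.63 with CHQ against ELA, where Scd1 gave -0.64 and 0.19.

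**Figure D4:**
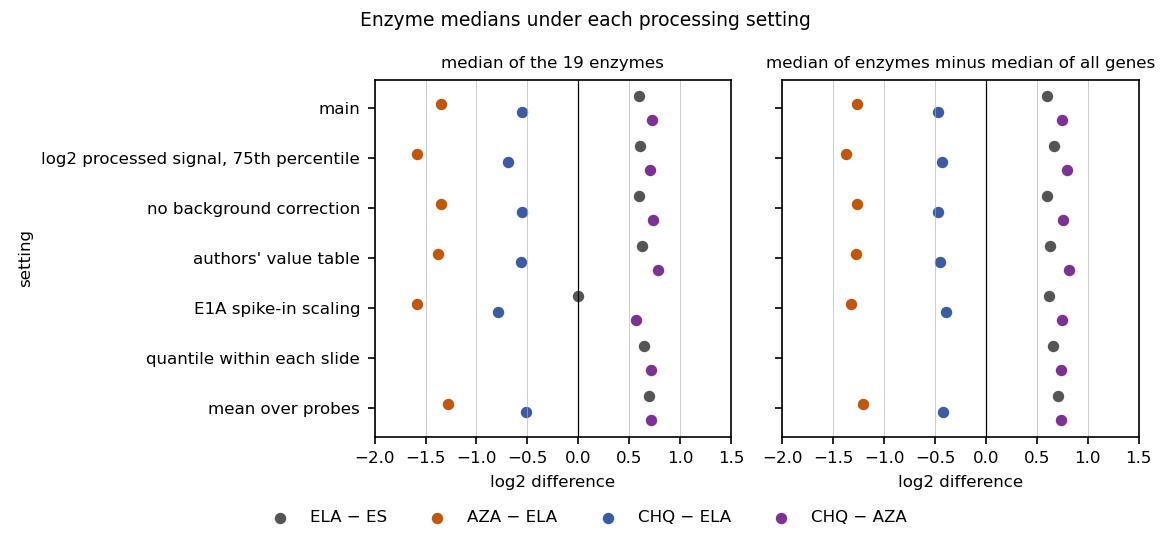
Median log2 difference of the 19 enzymes (left) and the same minus the median of all genes (right), horizontal axis, for each processing setting and comparison, where a missing point means that the setting cannot give that comparison. The left panel shows ELA minus ES at -0.0007 under spike-in scaling, and the right panel shows every comparison in a narrow range, from -1.38 to -1.20 for AZA minus ELA.

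Beyond the 32 genes, 61 others of sterol and lipid handling were read, all on the array, of which 53 to 55 met the level condition in a comparison. In ELA minus ES 4 were called higher (7.27%, beside 4.51% of all genes) and 1 lower (1.82%, beside 5.50%). In AZA minus ELA 9 were higher (16.7%, beside 14.2%) and 4 lower (7.41%, beside 11.4%), and in CHQ minus ELA 5 were higher (9.09%, beside 14.8%) and 3 lower (5.45%, beside 11.9%). In CHQ minus AZA 2 were higher (3.77%, beside 5.60%) and 1 lower (1.89%, beside 4.80%). Their medians were 0.05, -0.26, -0.19 and -0.07. Of the 11 genes of the isoprenoid branch, which serve prenylation, ubiquinone and dolichol, 0 were called in the first 3 comparisons, and Pdss2 (1.03), for the ubiquinone side chain, was called in CHQ minus AZA. Genes of acetyl-CoA supply and fatty acids included the desaturases Fads1 (1.03) and Fads2 (1.05), called higher in ELA than in ES. With AZA, Acsl3 (-1.52), an acyl-CoA synthetase, and Mid1ip1 (-1.64), an activator of acetyl-CoA carboxylase, were lower than in ELA. Acss2 (1.18), an acetyl-CoA synthetase, and Lpin1 (1.26), a phosphatidate phosphatase, were higher with AZA by their brighter probes, while their other probes gave 0.19 and 0.40. With CHQ, Acsl3 gave -1.68 against ELA, and the probes of Lpin1 gave 1.94 and 0.76.

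Genes of sterol sensing, uptake and storage moved in both directions. Vldlr, a receptor of the lipoprotein receptor family, measured 7.85 in ES, 10.49 in ELA, 10.701 under AZA and 11.87 under CHQ by its brighter probe, and its other probe gave 0.18 in ELA minus ES. Mylip, the LXR-induced ligase that degrades lipoprotein receptors, was higher with AZA (1.65) and CHQ (1.44) than in ELA by its brighter probe, with 0.08 and 0.14 by the other. Osbp, an oxysterol-binding protein, was higher by 1.12 with AZA than in ELA, and its other probe gave 0.19. The esterifying enzymes were opposed, since Soat1 measured 9.51, 10.68, 9.33 and 9.03, highest in ELA, and Soat2 measured 10.23, 8.70, 11.38 and 11.11, lowest there. Apoe, an apolipoprotein and LXR target, was higher with AZA by 1.58, as was Erlin1, of the complex that degrades sterol-regulated proteins, by 1.27, while Abca3, a lipid transporter, gave -1.08. Rxra, the partner of LXR, gave 2.20 with AZA by its brighter probe and -1.28 by its other, and -1.81 in CHQ minus AZA by the brighter. Rnf145, a sterol-regulated ubiquitin ligase, gave -1.20 in CHQ minus ELA.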

How the data were processed

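RNA of 4 groups was hybridised to single-colour Agilent arrays, 1 array per group. Each deposited scanner file gives mean and local background intensity per spot, made by the authors with Agilent Feature Extraction 10.7.3.1 per the file headers, while the submitters' processing notes list version 9.1. The deposited value table holds log2 values whose normalization is not stated in it; they correlated with the values used here at 0.991 to 0.992 across 55122 probes and served as an alternative. Intensities were corrected with normexp (offset 50) and quantile-normalized over gene spots in limma 3.58.1 (R 4.3.3). Flagged outlier spots were left out, spots of a probe were averaged, and each gene was represented by its brightest probe over the 4 arrays. Accessions were matched to RefSeq names for 47.7% of probes. Probe coordinates are those of the files (mm9), and no annotation of that build was used here, so exon and UTR positions of probes are not given. The 32 genes and all lists were chosen with earlier results of these data known, every one of the 32 is named with its levels, and other genes of a list are named where called, except 1 that is counted but not reported here. The calling rule was tested on simulated data. Alternatives were percentile (75th) scaling of processed signals, no background correction, the authors' table, spike-in scaling on 7 of 10 E1A probes, quantile within each slide, the mean over probes, a filter on both arrays and a threshold of 1.5. The number of arrays limits the precision.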

Additional observations from a re-analysis of the deposited data

How the results depend on the processing

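With 1 array per group, no replicate could be left out and no test run. No paired analysis was possible because each group has 1 array. A slide block could not be fitted, and quantile within each slide gives no value across slides. Spike-in scaling moved the median of all genes to -0.62 in ELA minus ES, -0.26 in AZA minus ELA, -0.40 in CHQ minus ELA and -0.18 in CHQ minus AZA. Of all calls, the higher share then went from 45.1% to 6.98% in ELA minus ES, from 55.4% to 46.2% in AZA minus ELA, from 55.5% to 33.5% in CHQ minus ELA and from 53.8% to 41.8% in CHQ minus AZA, and with percentile scaling it was 48.7% in AZA minus ELA and 42.0% in CHQ minus ELA.

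In ELA minus ES, the enzyme median turned to -0.0007 with spike-in scaling. Genes called higher numbered 1 with percentile scaling, 1 with spike-in scaling and 1 at a threshold of 1.5. Genes called lower numbered 3 with spike-in scaling (beside 19.69% of all genes). They numbered 0 in the authors' table (beside 5.69%) and 0 where both arrays had to be above background. In AZA minus ELA, the enzyme median was -1.58 with percentile and -1.59 with spike-in scaling. There, 0 genes were called higher with percentile scaling (beside 13.9% of all genes), in the authors' table (beside 14.1%) or with both arrays above background. At a threshold of 1.5, 9 were called lower. In CHQ minus ELA, 1 gene was called higher under the same 3 settings, beside 13.7% of all genes with percentile scaling and 14.7% in the authors' table. Genes called lower numbered 5 with percentile scaling (beside 18.96% of all genes), 7 with spike-in scaling (beside 22.18%) and 0 at 1.5. The enzyme median with spike-in scaling was -0.79. In CHQ minus AZA, 5 genes were called higher with spike-in scaling (beside 4.40% of all genes) and 3 at 1.5. Averaging probes turned Srebf2 in AZA minus ELA to 0.10. Beyond the shift of the scale, the cause was not tested. Of the other differences of single genes under the alternatives, 586 moved by less than the SD of a difference of 2 repeated spots (0.21) and 117 by more.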
